A study of Arabidopsis thaliana with 27 samples.

Results

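Etiolated hypocotyls of the uvr8-6 mutant of Arabidopsis thaliana that received the high UV-B dose (30000 µmol m-2, an exposure of about 45 min) were compared with hypocotyls of the same mutant that stayed in the dark. The comparison is between 6 of the 27 RNA-seq libraries of the series, 3 dark and 3 high-dose, chosen by their labels for genotype and dose, and covered all 32832 loci of the count table. Every group of the study was sown on 0.5× MS medium with 100 µM GA4, an active gibberellin, and kept in the dark for 2.5 days until germination. Seedlings were then irradiated or not and returned to the dark. RNA was taken from hypocotyls cut 6 h after exposure, whereas the series title speaks of 2 days. The low-dose uvr8-6 libraries (3000 µmol m-2, about 5 min) and the dark and high-dose libraries of WT (Columbia-0), 3 each, are described below for comparison. All 27 libraries, which also include 9 of the xpf-3 mutant (3 in the dark and 3 at each dose), entered the fit and so shared the low-count filter, the scaling and the estimate of spread; a fit of the 6 libraries alone gave 10054 changed genes in place of 11415. One allele of UVR8 was used, and no label says that the 3 replicates of a group came from separate cultures, so p-values measure the spread between these samples, which may be technical.

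UVR8 is the plant photoreceptor for UV-B. On absorbing UV-B it separates into monomers that bind the COP1 ubiquitin ligase complex, and the transcription factors HY5 and HYH then rise and induce flavonoid enzymes, photolyases and the feedback repressors RUP1 and RUP2. UV-B also damages DNA directly, mainly as pyrimidine dimers, and at high fluence it acts through reactive oxygen species and stalled ribosomes, routes that do not need a photoreceptor. The etiolated hypocotyl elongates in darkness almost wholly by cell expansion, under gibberellin, brassinosteroid and auxin.

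Total counts ranged from 12968130 to 15340602 in the dark libraries and from 12488317 to 15342281 after the high dose, so depth did not separate the groups. Ribosomal RNA from 4 loci took 0.0249% to 0.0878% of counts in the dark and 0.0933% to 0.282% after UV-B, and organelle-encoded genes took 0.0684% to 0.286% and 0.124% to 0.407%. Levels below are counts scaled by normalised library size (CPM), given for replicates 1, 2 and 3 in that order, and changes are log2 fold changes ± standard error (SE) from edgeR's quasi-likelihood fit. UVR8 itself had 2.78, 3.16 and 4.57 CPM in the dark and 3.18, 3.62 and 5.15 CPM after UV-B, groups that overlapped (0.197 ± 0.18, adjusted p = 0.369). In WT it had 70.6 ± 0.994 CPM in the dark and 66.8 ± 8.92 CPM after the high dose (SD, n = 3). Between the dark libraries its level in uvr8-6 differed from that in WT by -4.33 ± 0.17. No uvr8-6 library of the 6 exceeded 5.15 CPM, so all 6 matched their genotype label. Where reads of a mutant transcript fall within the gene is not shown by gene counts.

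The high dose changed the level of most measured genes in the mutant. Of 19794 genes that passed a low-count filter, 11415 differed from the dark at an adjusted p under 0.05 (57.7%), 6382 of them higher (32.2%) and 5033 lower (25.4%). These shares are the background for the counts of gene lists below. The median log2 change over all tested genes was 0.091. A change of at least 2-fold was found for 4866 genes (24.6%), 2430 higher and 2436 lower. At 4-fold or more decreases were the more numerous, with 860 genes higher and 1163 lower. At larger folds increases outnumbered decreases: 368 genes rose and 209 fell by at least 16-fold, and 184 rose and 16 fell by at least 64-fold. In 10740 of the 11415 changed genes the 3 libraries of one group lay wholly above or below those of the other, as they did in 12315 of all 19794 tested genes (62.2%). The excess of increases narrowed to 5720 against 5624 with DESeq2's size factors. It turned to 5287 increases against 5966 decreases without the low-count filter and to 5370 against 5531 in a fit of the 9 uvr8-6 libraries.

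**Figure D1:**
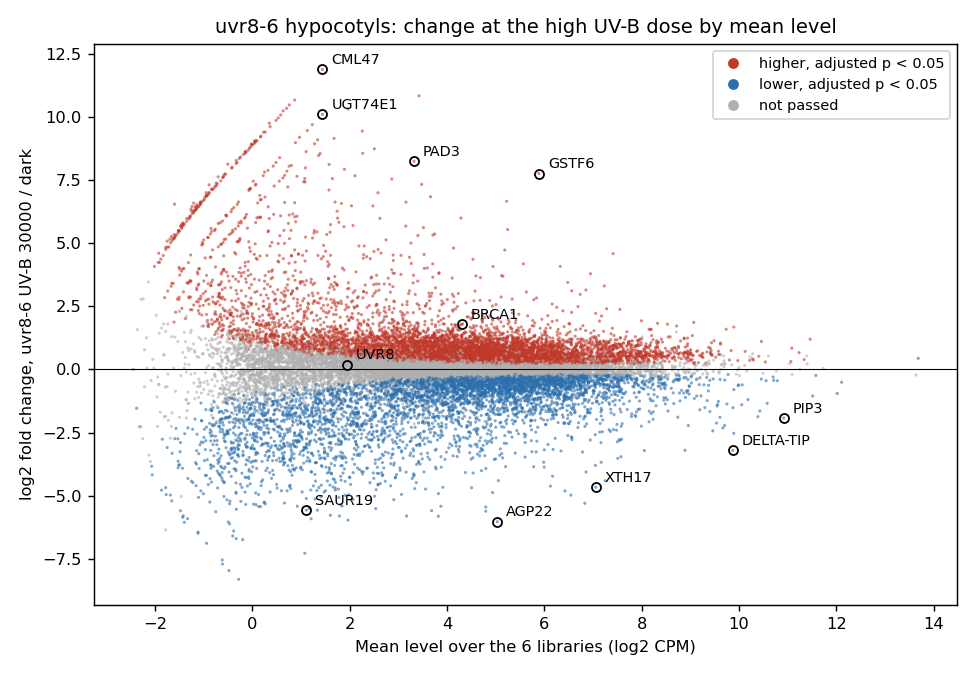
Each point is one of the 19794 tested genes, with its mean log2 CPM over the 6 libraries on the x axis and its log2 fold change, uvr8-6 high dose against dark, on the y axis. Red points are the 6382 genes that rose, blue points the 5033 that fell, and grey points did not pass. The straight lines at the left are genes with no or few dark counts, whose fitted change is no bound; CML47 stands highest among the labelled genes and AGP22 lowest.

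Marker genes of neighbouring tissues were present in these excised hypocotyls and moved with the dose. The 11 root markers summed to 350.1 to 728 CPM in the dark and 86.7 to 102 CPM after UV-B, and of the 10 tested 7 fell. Among these were CASP5 (-5.45 ± 0.53, adjusted p = 3.7e-08), a Casparian strip membrane protein of the root endodermis, and MYB36 (-2.61 ± 0.27, adjusted p = 4.7e-08), the transcription factor that switches on that strip. The 12 green-tissue markers summed to 3419 to 5492 CPM in the dark and 7856 to 12676 CPM after UV-B, and 11 rose, among them PSAF, a photosystem I subunit (1.303 ± 0.199, adjusted p = 8.5e-06), and GUN5, a subunit of magnesium chelatase (1.096 ± 0.17, adjusted p = 9.1e-06). Shoot apex and stomatal markers summed to 62.3 to 79.8 CPM and 80.6 to 108 CPM. Of the 10 tested, 5 rose (EPF2, FMA, TMM, SPCH and EPF1), a count that fell to 2 without high-dose replicate 3, to 2 without dark replicate 2 or 3 and to 3 without high-dose replicate 1 or with DESeq2's size factors. The 12 seed markers, 10 of them tested, summed to 13.3 to 78.2 CPM and 11.6 to 33.1 CPM. The single seed marker that passed, GEA6 (-1.698 ± 0.65, adjusted p = 0.0312), overlapped between groups and did not pass when dark replicate 2 or 3 or high-dose replicate 2 or 3 was left out. No tested marker of these lists was at 0. The part of such tissues in the results that follow was not tested, and in bulk samples fewer cells of a type and less RNA per cell cannot be told apart.

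The genes that rose most, named from those with a mean log2 CPM of at least 1 over the 6 libraries and no overlap between the groups, were almost silent in the dark. A low dark level follows in part from the choice by largest fold. CML47, a calmodulin-like calcium sensor, had no count in any dark library and 25.4, 71.4 and 34.9 CPM after UV-B, at least 649-fold higher when the dark group is set at a floor of 3 counts. An F-box gene, AT5G10340, rose from 0.0617, 0.216 and 0.258 CPM to 214, 465 and 359 CPM (10.85 ± 0.36, adjusted p = 7.5e-16). PRXCA, a class III peroxidase of the cell wall, rose from 0.123, 0.359 and 0.129 CPM to 70.6, 128 and 71.7 CPM (8.75 ± 0.43, adjusted p = 1.6e-12). Replicate 2 was the highest high-dose library for each of these 3.

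Several others had only 1 to 3 counts in the dark, so their ratio of summed counts is given with an interval for counting error alone. FOX1, a berberine-bridge-like oxidase of the cyanogenic branch of indolic defence, reached 51.6, 106 and 56.4 CPM, 1589.5-fold higher (95% counting interval 439.6 to 13131) than in the dark. UGT74E1, a glycosyltransferase and close copy of the auxin-conjugating UGT74E2, reached 27.3, 46.9 and 37.3 CPM, 1686-fold higher (95% counting interval 302 to 66627). DTX4, a MATE efflux carrier, reached 19, 24.9 and 27.2 CPM, 1090.2-fold higher (95% counting interval 195 to 43102). These 3 genes have close relatives with which reads may be shared, so each level is uncertain to that extent. The O-methyltransferase gene AT1G33030 reached 19.3, 39.6 and 25.2 CPM and was 1258-fold higher (95% counting interval 225 to 49723). HIPP13, a heavy-metal-associated protein, reached 29.2, 61.1 and 42.6 CPM and was 666-fold higher (95% counting interval 228 to 3234). The P450 gene CYP706A2 reached 19.3, 38.7 and 24.4 CPM and was 615-fold higher (95% counting interval 170 to 5087). GSTU11, a tau glutathione transferase, reached 15.2, 36.1 and 15.2 CPM and was 488-fold higher (95% counting interval 135 to 4038).

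A further pair of large increases lies beside ribosomal RNA genes. AT3G41762, an uncharacterized protein, had 0.0617, 0.288 and 0 CPM in the dark libraries and 61.6, 111 and 82.9 CPM after UV-B (9.46 ± 0.501, adjusted p = 6.8e-12). AT2G01008 had 0, 0.144 and 0 CPM in the dark libraries and 17.7, 43.2 and 30.9 CPM after UV-B. In both, replicate 2 was highest among the high-dose libraries, as it was for the ribosomal RNA share of counts given above, and the part of neighbouring ribosomal RNA in these levels was not tested.

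The 12 largest decreases, named under the same limits on mean level and overlap, were in genes of varied annotation. AGP22, an arabinogalactan peptide of the cell surface, had 259, 208 and 349 CPM in the dark libraries and 3.32, 6.78 and 2.52 CPM after UV-B (-6.04 ± 0.396, adjusted p = 1.1e-10). BDG2, an alpha/beta hydrolase related to the cuticle protein BODYGUARD, had 23.7, 16.3 and 43.3 CPM in the dark libraries and 0.353, 0.308 and 0.599 CPM after UV-B (-5.97 ± 0.51, adjusted p = 4.2e-09). The largest fold decrease at that mean level was that of AT4G19380, a long-chain fatty alcohol dehydrogenase gene, with 14.1, 6.61 and 37.9 CPM in the dark libraries and 0.0706, 0.077 and 0.18 CPM after UV-B (-7.29 ± 0.88, adjusted p = 8.2e-07). SAUR19, a promoter of auxin-driven cell expansion from a cluster of near-identical copies, had 13.9, 5.25 and 18.1 CPM in the dark libraries and 0.212, 0.154 and 0.359 CPM after UV-B (-5.58 ± 0.54, adjusted p = 1.9e-08). AT4G12520, annotated as a lipid-transfer protein, had 198, 139 and 261 CPM in the dark libraries and 3.11, 6.47 and 2.75 CPM after UV-B (-5.62 ± 0.43, adjusted p = 1.2e-09). The other 7 of the 12 largest decreases, which include a bHLH gene (AT5G51790) and a glycosyltransferase gene (AT5G37950), fell by 5.58 to 5.92 on the log2 scale.

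**Figure D2:**
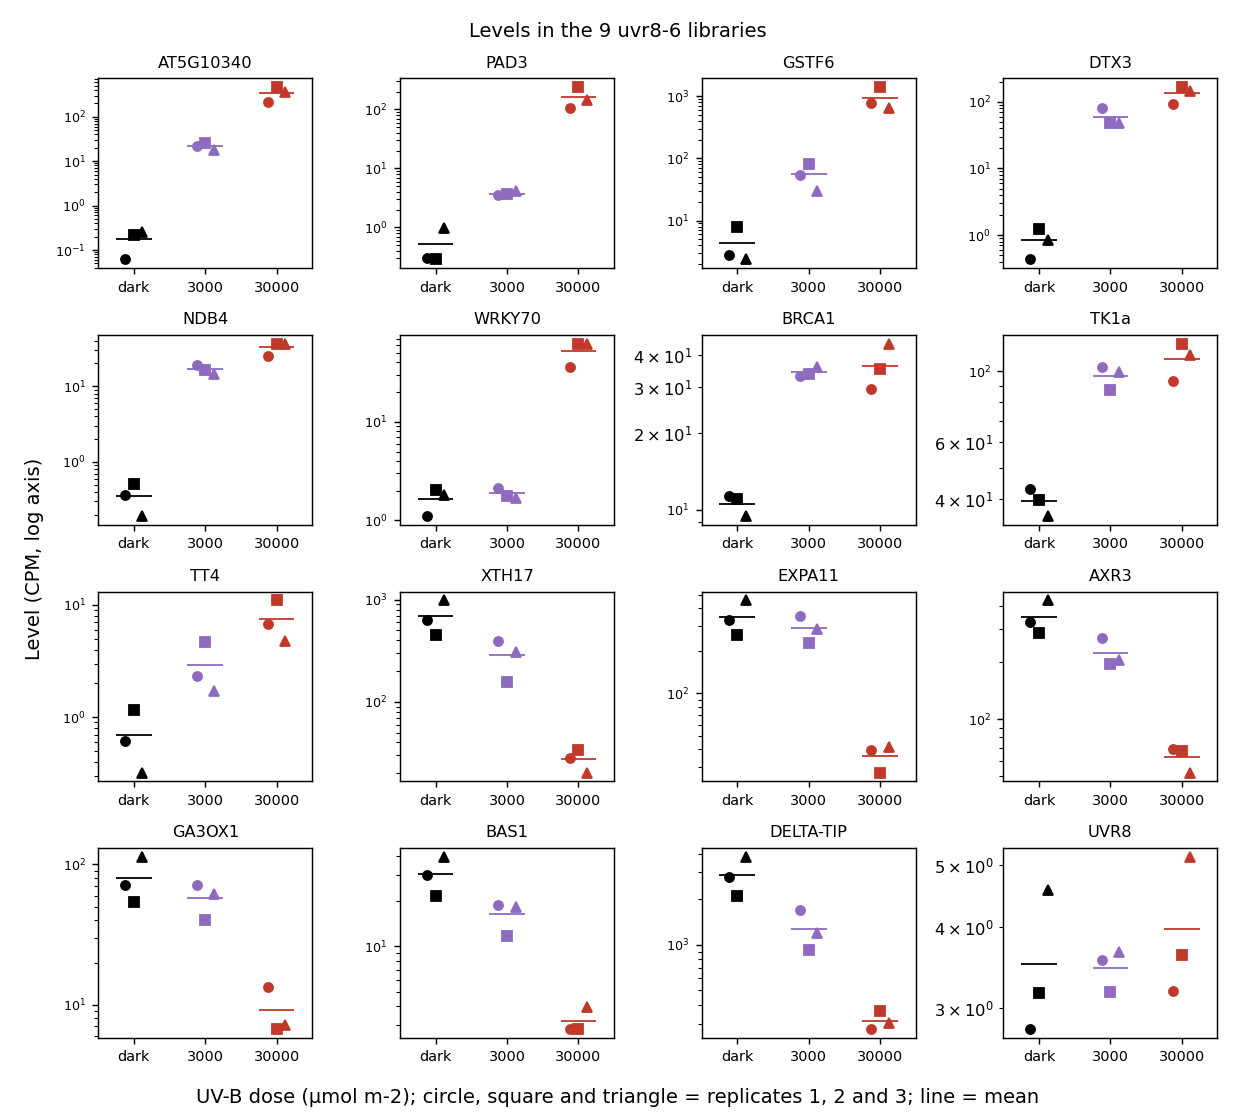
Normalised level (CPM, log axis) of 16 genes in each uvr8-6 library by UV-B dose; circle, square and triangle are replicates 1, 2 and 3 and the line is the group mean. The high-dose libraries of PAD3 lie at 107, 240 and 147 CPM and those of XTH17 at 28.1, 33.6 and 20.3 CPM, each apart from the dark libraries, while the UVR8 groups overlap.

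Most listed genes of the photoreceptor pathway, regulators among them, did not pass the test. Of 23 tested genes of the UVR8 pathway, 3 rose and 2 fell, with a median log2 change of 0.15. The repressor RUP1, a direct brake on UVR8, had 13.2, 46.6 and 17.8 CPM in the dark libraries and 1.48, 9.78 and 2.34 CPM after UV-B (-2.54 ± 0.69, adjusted p = 0.00369). BBX21, a B-box activator of HY5, fell as well (-0.52 ± 0.11, adjusted p = 0.000265). HY5, the central transcription factor of the pathway, had a log2 change of -0.48 ± 0.65 (adjusted p = 0.545), and RUP2 one of -0.12 ± 0.69 (adjusted p = 0.89). The 3 that passed upward were GPX7, a glutathione peroxidase-like enzyme with 2 dark counts and 0.283, 0.693 and 0.18 CPM after UV-B (8.33-fold higher (95% counting interval 1.96 to 74.7)), the HY5 homologue HYH, with 1.6, 7.69 and 1.03 CPM in the dark libraries and 6.22, 21.9 and 7.43 CPM after UV-B (1.803 ± 0.64, adjusted p = 0.0211), and the photolyase PHR1 (1.01 ± 0.37, adjusted p = 0.025; named after its value was seen). HYH overlapped between groups. The count of 3 fell to 0 without high-dose replicate 2 and to 1 without dark replicate 1 or 3, and rose to 6 without dark replicate 2. It was 0 in a fit of the 9 uvr8-6 libraries alone and 6 with the replicate number as a block within genotype. In WT at the high dose, 5 of the 23 rose and 5 fell, with a median of -0.081.

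The flavonoid branch nevertheless contained clear increases. Of 16 tested flavonoid and phenylpropanoid genes, 7 rose and 5 fell (median 0.31), beside 32.2% higher and 25.4% lower over all tested genes. TT4, chalcone synthase and the first committed enzyme of flavonoid synthesis, had 0.617, 1.15 and 0.322 CPM in the dark libraries and 6.78, 11 and 4.73 CPM after UV-B (3.42 ± 0.44, adjusted p = 1.8e-06). TT5, chalcone isomerase, rose from 4.44, 3.74 and 4.44 to 11.4, 11.7 and 9.64 CPM (1.37 ± 0.21, adjusted p = 9.8e-06), and FLS1, flavonol synthase, from 0.617, 1.08 and 0.579 to 4.1, 3.54 and 3.89 CPM (2.34 ± 0.38, adjusted p = 1.7e-05). None of these 3 overlapped between groups. The 5 that fell encode enzymes of general phenylpropanoid and lignin synthesis: PAL4 (-1.42 ± 0.21, adjusted p = 6.4e-06), PAL1 (-1.03 ± 0.22), 4CL1 (-0.42 ± 0.16), 4CL2 (-1.22 ± 0.20) and FAH1 (-0.83 ± 0.23), the last 4 named after their values were seen. Without dark replicate 3 the count of increases was 4 in place of 7.

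Genes of the DNA damage response rose together. Of 33 tested, 23 rose and 2 fell, with a median of 0.701 against 0.091 over all tested genes. BRCA1, which acts in repair of double-strand breaks by recombination, had 11.3, 11 and 9.47 CPM in the dark libraries and 29.7, 35.3 and 44.4 CPM after UV-B (1.79 ± 0.16, adjusted p = 5.8e-09). SMR7, a cyclin-dependent kinase inhibitor that arrests the cell cycle after damage, had 3.27, 2.73 and 1.61 CPM in the dark libraries and 15.4, 22.3 and 14.6 CPM after UV-B (2.77 ± 0.28, adjusted p = 1.9e-08). XRI1, a recombination gene first found by its X-ray induction, had 17.5, 18.8 and 15.1 CPM in the dark libraries and 43.4, 50.9 and 55.9 CPM after UV-B (1.55 ± 0.14, adjusted p = 3.1e-09). TRFL10 rose with them (1.41 ± 0.16, adjusted p = 1.5e-07). In these 4 genes no high-dose library overlapped a dark one. Other members also passed, among them the poly(ADP-ribose) polymerase PARP2 (1.38 ± 0.21) and the damage-responsive NAC factors NAC085 (2.39 ± 0.31) and NAC044 (1.65 ± 0.25), named after their values were seen. Upstream of them, the transcription factor SOG1 had a log2 change of 0.083 ± 0.12 (adjusted p = 0.562), the kinase ATM one of 0.25 ± 0.14 (adjusted p = 0.137) and the kinase ATR one of 0.082 ± 0.202 (adjusted p = 0.747). The 2 members that fell, SIM (-1.07 ± 0.13) and LGO (-1.15 ± 0.17), are the kinase inhibitors that set endoreduplication during development. Of the 23 increases, 15 were highest in high-dose replicate 3.

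Repair of UV photoproducts changed less. Among 24 tested genes of photoreactivation, nucleotide excision repair and bypass synthesis, 6 rose and 2 fell (median 0.17), shares below those of all tested genes. Among the increases were PHR1, DDB1B (0.38 ± 0.11, adjusted p = 0.00409), DET1 (0.34 ± 0.11, adjusted p = 0.0103), ERCC1 (0.37 ± 0.12) and XPB2 (0.35 ± 0.13), the last 2 named after their values were seen, and of these all but PHR1 were under 0.4 on the log2 scale. The count of 6 became 1 without high-dose replicate 3, 3 without dark replicate 1 and 1 without the low-count filter or in the 9 uvr8-6 libraries, and the 2 decreases became 4 with DESeq2's size factors. RAD23C, a ubiquitin-binding partner of lesion recognition, fell (-0.74 ± 0.13, adjusted p = 3.1e-05), as did the centrin CEN2 (-1.15 ± 0.26, adjusted p = 0.000812). The structure-specific nuclease gene UVH1 (XPF) had a log2 change of -0.196 ± 0.103 (adjusted p = 0.106).

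Genes of DNA replication and nucleotide supply also rose. Of 23 tested, 19 rose and 0 fell (median 0.71). TK1a, thymidine kinase, had 42.8, 39.5 and 35.3 CPM in the dark libraries and 93.4, 122 and 113 CPM after UV-B (1.48 ± 0.13, adjusted p = 1.8e-09). TSO2, a small subunit of ribonucleotide reductase, had 176, 191 and 139 CPM in the dark libraries and 357, 449 and 375 CPM after UV-B (1.22 ± 0.14, adjusted p = 2.0e-07), and RNR1, its large subunit, had 62.8, 63.8 and 54.7 CPM in the dark libraries and 139, 123 and 156 CPM after UV-B (1.205 ± 0.15, adjusted p = 4.2e-07). The replicative helicase subunit MCM2 rose from 33.3, 36.2 and 33.5 to 57.9, 56.7 and 63.4 CPM (0.79 ± 0.099, adjusted p = 5.6e-07). None of the 4 overlapped between groups.

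Many of these promoters carry the E2F site, the short element bound by the factors that switch on S-phase genes. The letters TTCCCGC, searched on both strands in the 250 bases before the annotated gene start, were found in 10 of 23 replication promoters (43.5%), in 1.24% of the 19718 promoters of all tested genes and in 0.543% of those of genes that rose at least 16-fold. The matches in 5 genes that rose and in CDT1A, a licensing factor whose change did not pass (0.25 ± 0.12, adjusted p = 0.0713), are shown so that the shared element can be seen (RefSeq annotation on TAIR10.1, 5′ to 3′ in the motif's own direction, motif in capitals). The strand given is that of the printed letters, which can be the strand opposite the gene, as it is for CDT1A. The search and the choice of sites were made after the values were seen, and a match describes letters, not binding. The replication list carries known targets of this site, so the share found in it was set in part by the choice of members.
MCM2, chr1:16970193-16970213, + strand: gccaatatTTCCCGCctaatc
MCM3, chr5:18773754-18773776, - strand: aatgacccTTCCCGCcaaaaagg
MCM5, chr2:3527504-3527526, - strand: ccatcagtTTCCCGCcacattgt
MCM6, chr5:18010699-18010721, + strand: ctaacattTTCCCGCtaaaaagt
ICU2, chr5:26776895-26776917, + strand: tgtcgattTTCCCGCcatctcca
CDT1A, chr2:13328847-13328861, - strand: TTCCCGCgaaaacac
In all 6 the element lies 7 to 62 bases before the gene start. MCM3, MCM5 and MCM6 are further subunits of the helicase and ICU2 is the catalytic subunit of DNA polymerase alpha. They rose by 0.69 ± 0.13, 0.77 ± 0.11, 0.80 ± 0.12 and 0.71 ± 0.12.

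Mitotic genes did not move to the same extent. Of 19 tested, 4 rose and 0 fell (median 0.43): the kinase CDKB1;1 (0.498 ± 0.14, adjusted p = 0.00509), the microtubule bundler PLE (0.72 ± 0.28, adjusted p = 0.0331), the cytokinetic kinesin HIK (0.64 ± 0.25, adjusted p = 0.0337) and the spindle factor TPX2 (0.68 ± 0.29, adjusted p = 0.0472), whose groups overlapped. This count was 1 with DESeq2's size factors, 10 with the replicate block, 7 without high-dose replicate 2 and 1 without high-dose replicate 1 or 3 or dark replicate 1 or 3. Among 25 core histone genes, 10 rose and 4 fell, for example HTA8 (0.75 ± 0.14, adjusted p = 9.8e-05) and HTA11 (0.59 ± 0.12, adjusted p = 0.000254), both H2A variants, upward. HTA12 fell (-0.86 ± 0.16, adjusted p = 7.3e-05), with HTA2, HTB9 and HTB11 (named after their values were seen). The 4 decreases became 2 without high-dose replicate 2 or 3 or dark replicate 1, and the 10 increases became 4 in a fit of the 6 libraries alone.

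Mitochondrial retrograde and oxidative stress genes, through which the nucleus answers damage in mitochondria and chloroplasts, rose broadly. Of 32 tested, 27 rose and 1 fell, with a median of 2.16, or 2.16 with 1 gene at its bound. NDB4, an alternative NADH dehydrogenase of the mitochondrial inner membrane, had 0.37, 0.503 and 0.193 CPM in the dark libraries and 24.9, 36.3 and 36.5 CPM after UV-B (6.49 ± 0.32, adjusted p = 1.6e-12). DTX3, a MATE carrier, had 0.432, 1.22 and 0.837 CPM in the dark libraries and 91.2, 167 and 143 CPM after UV-B (7.34 ± 0.37, adjusted p = 3.0e-12). CYP81D8, a P450 that marks reactive oxygen signalling, had 2.59, 3.74 and 3.54 CPM in the dark libraries and 63.6, 119 and 95 CPM after UV-B (4.82 ± 0.28, adjusted p = 1.6e-11). All 3 separated the groups. The alternative oxidases AOX1A (2.27 ± 0.19), AOX1C (1.29 ± 0.43) and AOX1D passed upward as well; AOX1D had no count in the dark libraries and 14 ± 6.3 CPM after UV-B (SD, n = 3). So did the mitochondrial chaperone BCS1 (3.73 ± 0.33), the membrane-tethered transcription factor NAC13 (2.06 ± 0.197) and the NADPH oxidase RBOHD (1.25 ± 0.15), named after their values were seen. NAC017, the tethered factor that starts the retrograde response, had a log2 change of -0.041 ± 0.097 (adjusted p = 0.739). FER1, the iron store ferritin, was the single member that fell (-0.42 ± 0.14); without high-dose replicate 1 it did not pass. Replicate 2 was the highest high-dose library for 22 of the 27 increases, against 2662 of the 6382 increases over all genes. Without it 26 members still rose.

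Promoters of the retrograde list were searched for the mitochondrial dysfunction motif, the element bound by NAC017 and NAC13. Its letters CTTGNNNNNCANG, searched on both strands in the same window, were found in 8 of 32 promoters (25%), in 1.53% of all 19718 and in 8.42% of those of genes that rose at least 16-fold. The list carries known targets of this motif, so the share found in it was set in part by the choice of members. The 29-base matches below come from 6 genes that rose and from NAC017, which did not pass, with the motif in capitals.
NDB2, chr4:2572340-2572368, + strand: cgatctggCTTGGCCACCAAGattgtttg
NDB3, chr4:11439612-11439640, + strand: tggtttgaCTTGACGGCCACGgcaagagt
NDA1, chr1:2204026-2204054, + strand: tgtcgtttCTTGCGCATCAAGttctgctg
UGT74E1, chr1:1702837-1702865, - strand: ccacacatCTTGGTAGCCACGtttgacct
HSP23.5, chr5:20891045-20891073, + strand: ttattttaCTTGGAGACCACGcagttcta
CYP81D8, chr4:17571863-17571891, - strand: caaactttCTTGAGGAACAAGacttgact
NAC017, chr1:12451287-12451315, - strand: ccaacattCTTGTCTGACACGacagaggt
NDA1, NDB2 and NDB3 are alternative NAD(P)H dehydrogenases and HSP23.5 is a mitochondrial small heat shock protein. They rose by 3.59 ± 0.52, 1.91 ± 0.22, 1.42 ± 0.35 and 2.74 ± 0.45. For UGT74E1 and DTX3, which combine a match with very large increases, the whole 250-base window is given to show its position; DTX3 holds 2 matches, 215 and 156 bases before the gene start, and UGT74E1 holds 1 at 108 bases.
UGT74E1 promoter, chr1:1702750-1702999, - strand: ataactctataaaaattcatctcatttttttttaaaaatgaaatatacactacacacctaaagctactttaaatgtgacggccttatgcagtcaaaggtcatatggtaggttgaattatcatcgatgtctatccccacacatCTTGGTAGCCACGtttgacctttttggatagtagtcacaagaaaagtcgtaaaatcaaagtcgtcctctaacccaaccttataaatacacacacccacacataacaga
DTX3 promoter, chr2:1339469-1339718, - strand: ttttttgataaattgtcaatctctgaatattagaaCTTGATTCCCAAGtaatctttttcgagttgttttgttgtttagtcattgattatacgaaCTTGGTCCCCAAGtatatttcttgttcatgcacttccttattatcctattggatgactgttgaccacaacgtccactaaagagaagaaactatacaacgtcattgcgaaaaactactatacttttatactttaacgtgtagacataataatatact
The gene starts are those of the reference annotation, matched by locus, since the build behind the counts is not given in the sources used here.

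Camalexin and indolic defence genes, which make the main antimicrobial compounds of Arabidopsis, rose without exception among those tested. All 10 tested camalexin and indolic defence genes rose (median 4.06, or 3.51 with 1 gene that had no dark count set at its bound). PAD3, the P450 that completes camalexin synthesis, had 0.308, 0.288 and 0.966 CPM in the dark libraries and 107, 240 and 147 CPM after UV-B (8.26 ± 0.48, adjusted p = 2.0e-11). GSTF6, a glutathione transferase used in the same route, had 2.84, 7.84 and 2.38 CPM in the dark libraries and 781, 1401 and 634 CPM after UV-B (7.77 ± 0.54, adjusted p = 3.9e-10). MYB51, a regulator of indole glucosinolates, had 30, 27.8 and 39 CPM in the dark libraries and 114, 169 and 143 CPM after UV-B (2.14 ± 0.22, adjusted p = 3.1e-08). Each of the 10 was highest in high-dose replicate 2, and 10 rose in the fit without that library. CYP82C2 of the same branch was at 0 in both groups and not tested.

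Of 22 tested salicylic acid and immune regulators, 19 rose and 1 fell (median 1.77). CBP60G, a calmodulin-binding activator of salicylic acid synthesis, had 0.123, 0.288 and 0.129 CPM in the dark libraries and 17.1, 36.1 and 24.7 CPM after UV-B (7.12 ± 0.33, adjusted p = 1.6e-12). WRKY70 had 1.11, 2.01 and 1.8 CPM in the dark libraries and 35.6, 61 and 62.1 CPM after UV-B (5.01 ± 0.29, adjusted p = 8.8e-12) and WRKY46 had 0.123, 0.431 and 0.386 CPM in the dark libraries and 15, 34.7 and 24.6 CPM after UV-B (6.28 ± 0.42, adjusted p = 7.2e-11); both are WRKY factors of immune signalling. PBS3, the enzyme that conjugates isochorismate to glutamate, had 4.66, 11.9 and 7.49 CPM after UV-B, 359-fold higher (95% counting interval 64.1 to 14230) than in the dark. The isochorismate synthase gene EDS16 rose less (1.19 ± 0.35), and EDS5, the carrier that exports isochorismate from the plastid, was the one that fell (-1.55 ± 0.17); both are named after their values were seen. The classical output genes PR1 and PR5 had no count in either group. Without high-dose replicate 2, the highest library for 15 of the 19 increases, 17 rose.

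The families around these genes split more evenly. Among 50 WRKY genes 21 rose and 11 fell (median 0.12), with WRKY45 (4.90 ± 0.403, adjusted p = 1.8e-09) and WRKY15 (2.24 ± 0.19, adjusted p = 1.5e-09) among the increases. Cysteine-rich receptor-like kinases, cell-surface proteins induced by oxidative stress, gave 16 increases and 5 decreases among 24 (median 1.84, or 1.84 with 4 genes that had no count in a group set at their bound). CRK11 had 3.15, 3.88 and 4.25 CPM in the dark libraries and 36.7, 66.4 and 57.8 CPM after UV-B (3.83 ± 0.29, adjusted p = 5.3e-10), and CRK36 rose by 6.62 ± 0.55. The 5 that fell, CRK16, CRK25, CRK27, CRK34 and CRK42, were named after their values were seen. Tau and phi glutathione transferases, which detoxify by conjugation, gave 21 increases and 4 decreases among 34 (median 0.97). GSTU12 had 0.247, 0.144 and 0.0644 CPM in the dark libraries and 19.6, 43 and 31.4 CPM after UV-B (7.57 ± 0.501, adjusted p = 2.6e-10) and GSTF2 had 1.6, 3.02 and 2.64 CPM in the dark libraries and 129.7, 210.1 and 126 CPM after UV-B (6.01 ± 0.44, adjusted p = 5.2e-10). GSTF4, GSTU6, GSTU26 and GSTU28 fell, a count of 4 that became 7 with the replicate block on the 6 libraries. Of 40 DTX efflux carriers 17 rose and 11 fell, with DTX16 (3.39 ± 0.23, adjusted p = 7.8e-11) up and DTX36 (-1.43 ± 0.12, adjusted p = 1.7e-09) down.

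The W-box, the element bound by WRKY factors, was common everywhere. Its core TTGAC was found on either strand in 45.2% of all 19718 promoter windows, in 65.8% of those of genes that rose at least 16-fold and in 43.1% of those of genes that fell at least 16-fold. It was present in 68.2% of the promoters of the salicylic acid list, most of which rose. The share was 68.8% in the gibberellin list, of whose 16 tested genes 3 rose and 11 fell.

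Among genes of protein and ribosome homeostasis, nucleolar genes rose most evenly. Of 8 nucleolar and ribosome biogenesis genes, 7 rose and 0 fell (median 1.22). NUC-L2, a nucleolin, had 1.48, 1.94 and 2.0 CPM in the dark libraries and 4.87, 5.54 and 5.69 CPM after UV-B (1.57 ± 0.24, adjusted p = 7.7e-06). PUM24, a ribosomal RNA processing factor, rose by 1.28 ± 0.16, adjusted p = 4.2e-07. FIB1, the fibrillarin of the methylation complex, rose by 1.19 ± 0.18, adjusted p = 1.0e-05. The nucleolar stress factor NAC082 rose by 0.798 ± 0.11, adjusted p = 3.6e-06. The sensor kinase TOR had a log2 change of 0.005 ± 0.12 (adjusted p = 0.973).

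Proteasome subunit genes rose by small amounts, 30 of 35 with a median of 0.35. PAD2, a core particle subunit, rose by 0.74 ± 0.12, adjusted p = 1.9e-05, and the regulatory ATPase RPT1A by 0.64 ± 0.12, adjusted p = 0.000101. The count depended on the processing: 19 with DESeq2's size factors, 8 without the low-count filter, 6 in the 9 uvr8-6 libraries, 5 in the 6 libraries, 14 without high-dose replicate 2 and 12 without dark replicate 3. Heat shock genes were mixed. Of 19 tested, 6 rose and 1 fell (median 0.57), with the share of increases close to that of all tested genes. HSP23.6-MITO, a mitochondrial small chaperone, had 0.37, 0.647 and 0.0644 CPM in the dark libraries and 6.29, 25.5 and 8.92 CPM after UV-B (5.21 ± 0.78, adjusted p = 1.0e-05). HSP17.6II, a cytosolic small chaperone, reached 6.22, 25.9 and 12.3 CPM and was 328-fold higher (95% counting interval 90.4 to 2714). HSP90.1 had 13.2, 43.3 and 13.5 CPM in the dark libraries and 43.2, 181 and 50.7 CPM after UV-B (1.98 ± 0.62, adjusted p = 0.00993), with overlap between groups. HSFA7A fell (-1.35 ± 0.42, adjusted p = 0.00929) and HSFA2, the main amplifier of the heat response, had a log2 change of 0.57 ± 0.85 (adjusted p = 0.585). All 6 increases were highest in high-dose replicate 2, and 2 rose without it, with 3 decreases in place of 1.

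Other heat shock factors also moved: HSF A4A, linked to oxidative stress, had 3.15, 3.81 and 3.61 CPM in the dark libraries and 17.9, 31.5 and 19.1 CPM after UV-B (2.69 ± 0.25, adjusted p = 7.8e-09), HSFA8 rose by 1.75 ± 0.17, adjusted p = 1.9e-08 and AT-HSFA7B fell (-1.11 ± 0.28, adjusted p = 0.00199). In the endoplasmic reticulum stress list, 2 of 9 rose: BZIP60, a transducer of the unfolded protein response (0.97 ± 0.16, adjusted p = 1.6e-05), and NAC103 (1.51 ± 0.36, adjusted p = 0.00134). Of 12 senescence and cell death genes 3 rose and 3 fell (median -0.007), shares near those of all tested genes. SAG21, a stress-induced late-embryogenesis-type protein, rose by 1.20 ± 0.18, adjusted p = 5.5e-06, and NBR1, a selective autophagy receptor, by 0.73 ± 0.12, adjusted p = 3.5e-05. RNS3, a ribonuclease of programmed cell death, fell (-2.38 ± 0.43, adjusted p = 6.6e-05), as did MC9, the metacaspase of xylem cell death (-2.06 ± 0.404, adjusted p = 0.00016). The third increase was BI1 and the third decrease GAMMA-VPE, named after their values were seen.

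**Figure D3:**
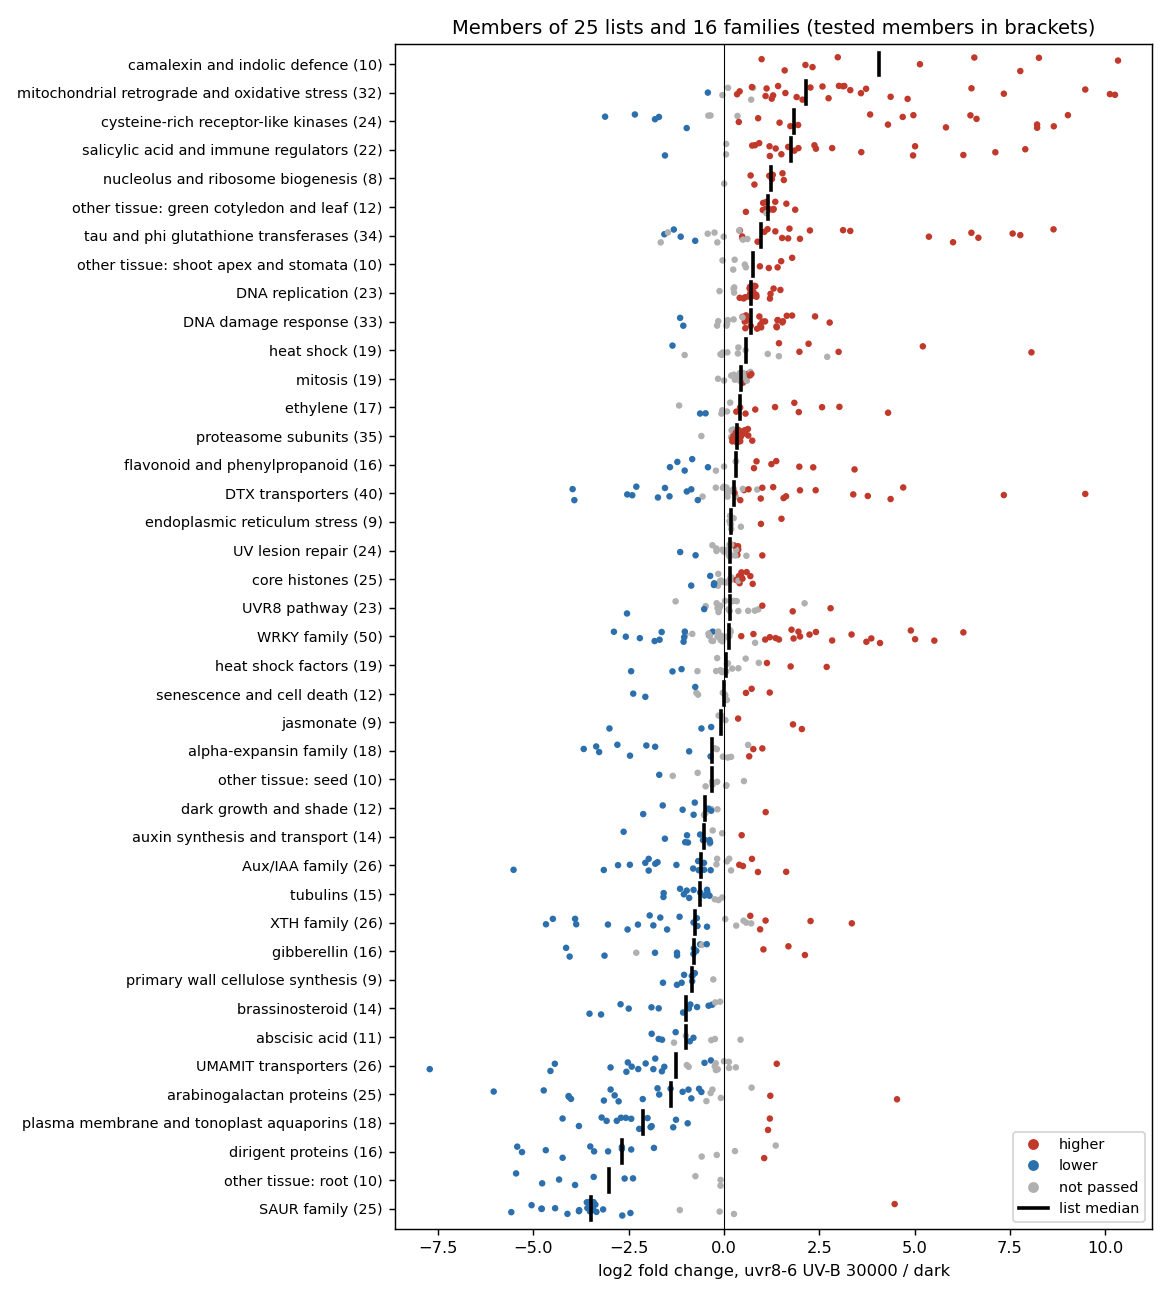
Log2 fold change (x axis), uvr8-6 high dose against dark, of the tested members of 25 gene lists and 16 families, ordered by median; each point is one gene, red higher, blue lower and grey not passed, and a black bar marks the list median. The medians run from -3.49 for SAUR genes to 4.06 for camalexin genes.

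Growth hormone genes went down. Of 14 auxin synthesis, transport and response genes, 1 rose and 10 fell (median -0.53). YUC8, which makes auxin under warmth and shade, had 6.42, 7.84 and 8.5 CPM in the dark libraries and 0.777, 0.924 and 1.86 CPM after UV-B (-2.63 ± 0.32, adjusted p = 3.8e-07). PIN3 had 211, 193 and 241 CPM in the dark libraries and 116, 83.1 and 119.6 CPM after UV-B (-1.02 ± 0.15, adjusted p = 4.1e-06) and PIN4 had 105, 114 and 162 CPM in the dark libraries and 42.1, 38.4 and 49.8 CPM after UV-B (-1.55 ± 0.14, adjusted p = 2.8e-09); both are auxin efflux carriers. The influx carrier AUX1 fell by 0.97 on the log2 scale (adjusted p = 5.9e-06). The one increase was the kinase PID (0.46 ± 0.12, named after its value was seen).

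Early auxin-response families fell with them. Among 25 tested SAUR genes, 1 rose and 21 fell, with a median of -3.49. SAUR50 had 56.1, 47.8 and 65.2 CPM in the dark libraries and 7.35, 4.77 and 6.59 CPM after UV-B (-3.17 ± 0.198, adjusted p = 1.9e-11) and SAUR28 had 11.2, 6.4 and 12.4 CPM in the dark libraries and 0.283, 0.462 and 0.599 CPM after UV-B (-4.43 ± 0.36, adjusted p = 1.0e-09). Neither overlapped between groups. The increase was SAUR71 (4.48 ± 0.42). Of 26 Aux/IAA repressors, 5 rose and 16 fell (median -0.59). IAA19, induced in elongating hypocotyls, had 249.9, 173 and 337 CPM in the dark libraries and 30, 42.2 and 38.6 CPM after UV-B (-2.78 ± 0.25, adjusted p = 4.7e-09), and AXR3 (IAA17) had 329, 285 and 428 CPM in the dark libraries and 69, 67.5 and 51.9 CPM after UV-B (-2.47 ± 0.22, adjusted p = 3.7e-09). The 5 Aux/IAA increases, IAA11, IAA18, IAA20, IAA30 and PAP2, became 3 without high-dose replicate 3 or dark replicate 1 or 3, with DESeq2's size factors or without the low-count filter. SAUR71 and these 5 were named after their values were seen. SAUR genes of one cluster are near copies, so reads may be split among them.

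Gibberellin genes changed in both directions, on medium that held the hormone in every group. Of 16 tested, 3 rose and 11 fell (median -0.796). GA20OX2, which makes gibberellin precursors, had 11.2, 7.12 and 17.3 CPM in the dark libraries and 0.565, 0.77 and 0.659 CPM after UV-B (-4.14 ± 0.404, adjusted p = 1.7e-08). GA20OX1, of the same step, had 21.3, 9.78 and 27.5 CPM in the dark libraries and 1.34, 0.539 and 1.56 CPM after UV-B (-4.05 ± 0.51, adjusted p = 9.9e-07). GA3OX1, which makes the active hormone, had 71.9, 54.1 and 113 CPM in the dark libraries and 13.4, 6.7 and 7.19 CPM after UV-B (-3.13 ± 0.32, adjusted p = 5.5e-08). GA2OX8, a deactivating oxidase, also fell (-1.81 ± 0.24, adjusted p = 9.7e-07). The 3 increases were the deactivating oxidases GA2OX2 (2.12 ± 0.29) and GA2OX6 (1.69 ± 0.22) and the receptor GID1B (1.03 ± 0.24), named after their values were seen. Of 14 brassinosteroid genes, 12 fell and none rose (median -0.996). BAS1, which inactivates brassinosteroids, had 29.7, 21.7 and 39.4 CPM in the dark libraries and 2.83, 2.85 and 3.95 CPM after UV-B (-3.22 ± 0.25, adjusted p = 6.5e-10), and ROT3, a P450 of their synthesis, had 22.3, 17.61 and 34.3 CPM in the dark libraries and 3.74, 3.39 and 4.13 CPM after UV-B (-2.71 ± 0.25, adjusted p = 9.1e-09). The bHLH genes IBH1 (-3.53 ± 0.35, adjusted p = 2.2e-08) and BEE1 (-1.71 ± 0.201, adjusted p = 2.1e-07), which act against and for elongation, both fell.

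The machinery of wall growth fell broadly. Of 9 genes of primary wall cellulose synthesis, 8 fell and none rose (median -0.85). CESA6, a catalytic subunit, had 433, 431 and 481 CPM in the dark libraries and 207, 176 and 189.6 CPM after UV-B (-1.23 ± 0.12, adjusted p = 1.1e-08). POM1, a chitinase-like protein needed for cellulose assembly, had 836, 772 and 963 CPM in the dark libraries and 397, 424 and 424 CPM after UV-B (-1.05 ± 0.12, adjusted p = 8.5e-08). CSI1, which ties the synthase to microtubules, had 215, 208 and 241 CPM in the dark libraries and 115, 82.9 and 109 CPM after UV-B (-1.11 ± 0.13, adjusted p = 2.2e-07). Tubulins, which guide the synthase, gave 12 decreases among 15 and no increase (median -0.62), led by TUB1 (-1.58 ± 0.13, adjusted p = 6.3e-10) and TUB8 (-1.59 ± 0.17, adjusted p = 8.1e-08).

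Wall-loosening families were mostly lower. Of 26 XTH genes, which cut and rejoin xyloglucan, 5 rose and 16 fell (median -0.76). XTH17 had 639.7, 451 and 989.6 CPM in the dark libraries and 28.1, 33.6 and 20.3 CPM after UV-B (-4.67 ± 0.38, adjusted p = 2.4e-09) and XTH33 had 44.9, 45.2 and 56.1 CPM in the dark libraries and 1.2, 3.46 and 1.92 CPM after UV-B (-4.49 ± 0.26, adjusted p = 8.2e-12). The 5 increases, XTH6 (3.35 ± 0.55), XTH7 (2.27 ± 0.37), XTH16, XTH28 and TCH4, were all highest in high-dose replicate 2. Of 18 alpha-expansins, which loosen walls under acid pH, 3 rose and 9 fell (median -0.301). EXPA8 had 228, 137 and 339 CPM in the dark libraries and 22.3, 17.56 and 15.2 CPM after UV-B (-3.68 ± 0.39, adjusted p = 8.8e-08) and EXPA11 had 334, 258 and 458 CPM in the dark libraries and 39.5, 27.4 and 41.4 CPM after UV-B (-3.27 ± 0.27, adjusted p = 1.6e-09). EXPA1, EXPA15 and EXPA20 rose. The XTH and expansin increases were named after their values were seen.

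Surface and transport families showed the same direction. Of 25 arabinogalactan proteins, 2 rose and 18 fell (median -1.40). AGP14 had 95.9, 90.2 and 129 CPM in the dark libraries and 5.16, 8.55 and 5.93 CPM after UV-B (-4.01 ± 0.24, adjusted p = 1.9e-11), while AGP5 rose from 1.67, 1.65 and 1.22 to 20.3, 54.5 and 31.4 CPM (4.54 ± 0.305, adjusted p = 5.8e-11) and AGP1 also rose (1.21 ± 0.22, named after its value was seen). Of 16 dirigent proteins, which steer lignan and lignin coupling, 1 rose and 11 fell (median -2.68). DIR13 had 85.2, 82.6 and 110.5 CPM in the dark libraries and 2.26, 2.39 and 1.86 CPM after UV-B (-5.42 ± 0.29, adjusted p = 6.1e-12). The increase was DIR20 (1.05 ± 0.199), and 2 dirigent genes passed upward without dark replicate 2 or in fits of the uvr8-6 libraries alone. Of 18 aquaporins, water channels of the plasma membrane and vacuole, 2 rose and 15 fell (median -2.11). DELTA-TIP, of the vacuole, had 2784, 2099 and 3808 CPM in the dark libraries and 276, 364 and 301 CPM after UV-B (-3.21 ± 0.28, adjusted p = 3.1e-09). RD28 (PIP2;3), of the plasma membrane, had 10.6, 11.8 and 16.9 CPM in the dark libraries and 1.91, 2.39 and 2.28 CPM after UV-B (-2.57 ± 0.22, adjusted p = 1.6e-09). PIP2;5 and PIP2;8 rose. Of 26 UMAMIT amino acid exporters, 1 rose and 15 fell (median -1.27, or -1.27 with 1 gene at its bound), with UMAMIT33 at 26.53, 17.61 and 40.6 CPM in the dark libraries and 1.62, 1.39 and 0.659 CPM after UV-B (-4.55 ± 0.39, adjusted p = 3.6e-09). UMAMIT46 rose, and did not pass without high-dose replicate 1 or dark replicate 2 or 3. DIR20, the 2 aquaporins and UMAMIT46 were named after their values were seen.

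Among light and stress hormone regulators the directions were mixed. Of 12 genes of dark growth and shade, 1 rose and 7 fell (median -0.505). PIF4, a bHLH factor that drives hypocotyl elongation, had 15.5, 14.6 and 23.4 CPM in the dark libraries and 3.6, 8.16 and 5.87 CPM after UV-B (-1.61 ± 0.24, adjusted p = 5.2e-06). PIL1, a shade marker, had 27.9, 11.3 and 33.7 CPM in the dark libraries and 4.95, 2.77 and 8.8 CPM after UV-B (-2.12 ± 0.48, adjusted p = 0.000858). The blue-light receptor CRY1 fell (-0.77 ± 0.12, adjusted p = 8.0e-06) and HLS1, which holds the apical hook, rose (1.09 ± 0.32, named after its value was seen). The 7 decreases became 11 with the replicate block on the 6 libraries. Of 17 ethylene genes, 10 rose and 2 fell (median 0.42). ERF2 had 0.494, 0.359 and 0.322 CPM in the dark libraries and 5.37, 10.5 and 8.08 CPM after UV-B (4.304 ± 0.43, adjusted p = 2.0e-08) and ERF6 had 3.02, 7.04 and 3.41 CPM in the dark libraries and 24.9, 49.4 and 34.8 CPM after UV-B (3.03 ± 0.299, adjusted p = 2.5e-08); both are ethylene response factors of stress. ACS2, a synthase of the ethylene precursor, rose by 1.84 ± 0.297, adjusted p = 1.8e-05. EIN2 and EBF1 fell (-0.63 ± 0.17 and -0.48 ± 0.14, named after their values were seen), and 1 of them passed without dark replicate 3.

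Of 9 tested jasmonate genes, 3 rose and 3 fell (median -0.067), again near the shares of all tested genes. LOX3, a lipoxygenase of jasmonate synthesis, had 0.617, 0.288 and 0.773 CPM in the dark libraries and 2.26, 2.31 and 2.52 CPM after UV-B (2.04 ± 0.36, adjusted p = 4.9e-05), and JAZ5, a repressor, rose by 1.81 ± 0.42, adjusted p = 0.000936. The output gene VSP2 fell (-3.003 ± 0.696, adjusted p = 0.000874), as did the conjugating enzyme JAR1 (-0.34 ± 0.079, adjusted p = 0.0010). JAZ10 rose and AOS fell (0.37 ± 0.15 and -0.59 ± 0.18, named after their values were seen). Of 11 abscisic acid genes 0 rose and 6 fell (median -0.998), among them the transcription factor ABF3 (-1.63 ± 0.22, adjusted p = 2.3e-06) and the phosphatase ABI2 (-0.80 ± 0.21, adjusted p = 0.00304). Without dark replicate 3, 3 of the 6 fell.

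The low-dose libraries show at which fluence these changes appeared. In uvr8-6, 1090 genes differed between the low dose and the dark (5.51%), 520 higher (2.63%) and 570 lower (2.88%). Between the high and the low dose, 8072 differed (40.8%), 4406 higher (22.3%) and 3666 lower (18.5%) at the high dose. With DESeq2's size factors the split was 3602 higher and 4195 lower, and without low-dose replicate 3 the higher count was 2899. The low-dose comparison shares the dark libraries with the main one, and the dose comparison shares the high-dose libraries, so the values are set side by side without an overlap between them.

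For the DNA damage genes BRCA1 and XRI1 the step from the low to the high dose did not pass the test. BRCA1 had 11.3, 11 and 9.47 CPM in the dark, 33.1, 33.9 and 36 CPM at the low dose and 29.7, 35.3 and 44.4 CPM at the high dose, a difference between doses of 0.089 ± 0.15, adjusted p = 0.667. XRI1 had 48.9, 52.2 and 49.7 CPM at the low dose, -0.004 ± 0.13, adjusted p = 0.983 for the step to the high dose. Outside that list, the efflux carrier DTX4 stood at 18.4, 17.9 and 14 CPM and 19, 24.9 and 27.2 CPM, 0.504 ± 0.26, adjusted p = 0.127. In the DNA damage list 11 members were higher at the low dose than in the dark, and 6 were higher and 2 lower at the high than at the low dose. The list's median log2 change from the dark was 0.444 at the low dose and 0.701 at the high dose. Its median change between doses was 0.218, against 0.071 over all tested genes.

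The 5 genes named next were chosen for the largest rise from the low to the high dose, so the size of that rise follows from the choice. PRXCA had 0.123, 0.359 and 0.129 CPM in the dark, 0.537, 0.594 and 0.366 CPM at the low dose and 70.6, 128 and 71.7 CPM at the high dose, a difference between doses of 7.47 ± 0.38, adjusted p = 2.8e-11. PLA2A, a lipid acyl hydrolase of cell death and defence, had 0.0671, 0.066 and 0 CPM at the low dose and 12.8, 27.9 and 18.7 CPM at the high dose (8.501 ± 0.56, adjusted p = 2.5e-10). GSTU11 had 0.201, 0.198 and 0.122 and 15.2, 36.1 and 15.2 CPM (6.91 ± 0.49, adjusted p = 1.8e-09). CML47 and AT1G56060, a small cysteine-rich membrane protein gene, complete the 5 largest differences, by 6.49 ± 0.53 and 6.75 ± 0.54. At the low dose 3 of the 10 camalexin genes and 2 of the 22 salicylic acid genes were higher than in the dark, and at the high dose 9 and 16 were higher than at the low dose. For the 32 retrograde genes these counts were 17 and 19.

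The largest decreases from the low to the high dose fell on genes of varied function. AT3G25930, an adenine nucleotide hydrolase-like gene, had 91.6, 86.9 and 81.3 CPM in the dark, 73.2, 75.3 and 51.3 CPM at the low dose and 1.7, 2.62 and 1.14 CPM at the high dose (-5.22 ± 0.37, adjusted p = 9.3e-10 between doses). The peroxidase gene PER22 had 12.3, 7.91 and 15.4 CPM in the dark, 28.9, 31.7 and 21 CPM at the low dose and 0.212, 0.924 and 0.18 CPM at the high dose (-5.99 ± 0.52, adjusted p = 1.4e-08); its low-dose libraries lay above the dark ones. AT1G76240, PBL15, a receptor-like cytoplasmic kinase, and the lipid-transfer gene AT2G48130 had differences between doses of -4.89 ± 0.42, -4.96 ± 0.44 and -5.04 ± 0.36. Of the 18 aquaporins, 10 were already lower at the low dose than in the dark, as were 3 of the 25 SAUR genes and 0 of the 9 cellulose genes.

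**Figure D4:**
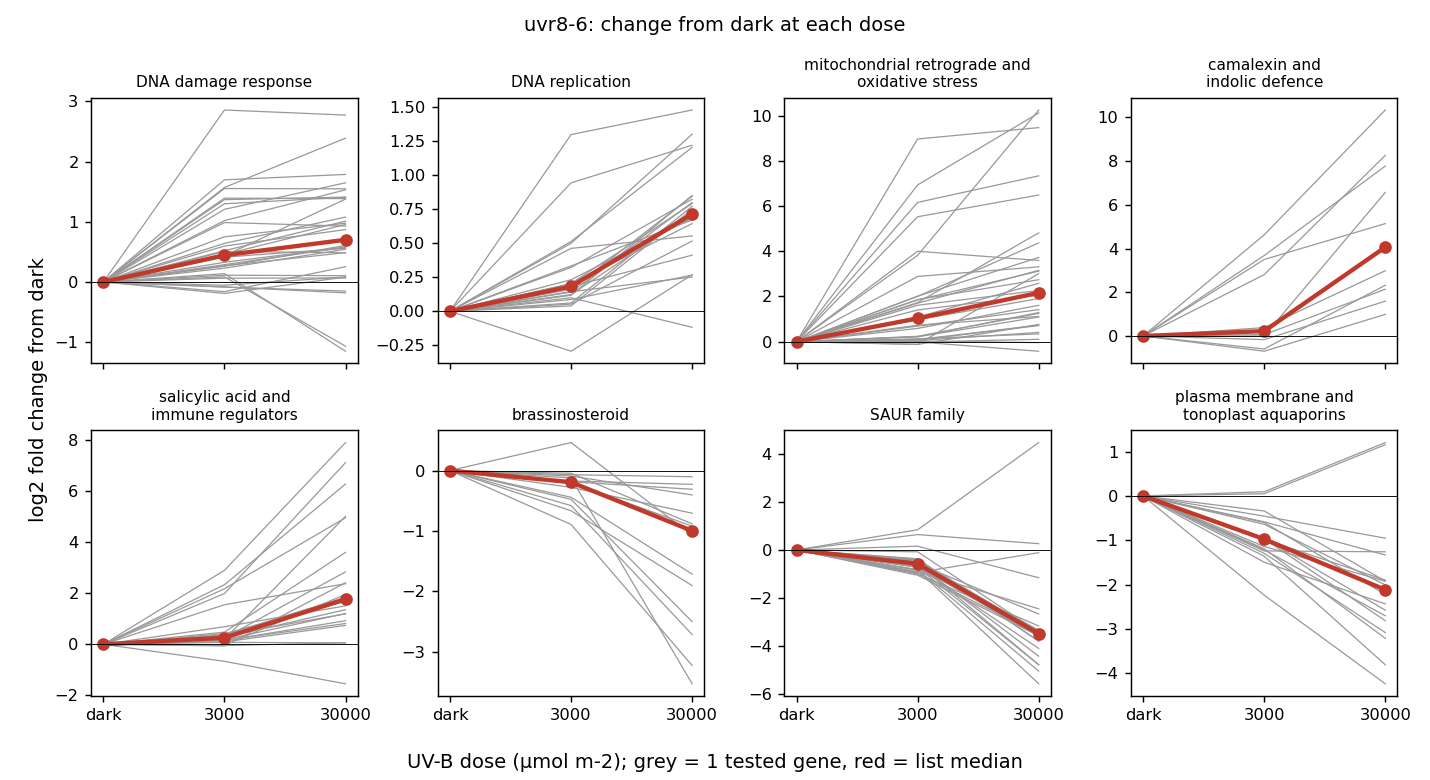
Log2 fold change from dark (y axis) at the dark, low and high dose (x axis, µmol m-2) for 8 gene lists in uvr8-6; each grey line is one tested gene and the red line the list median. The SAUR median reaches -3.49 and the camalexin median 4.06 at the high dose, while the DNA damage median ends at 0.701.

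The same dose in WT gave the response of plants with a working photoreceptor. The difference of the responses, uvr8-6 minus WT, was tested as an interaction on the log2 scale and passed for 1625 genes (8.21%), 887 with a higher response in uvr8-6 (4.48%) and 738 with a lower one (3.73%). With DESeq2's size factors the split turned to 645 higher and 866 lower. The count was 602 in a fit of these 12 libraries alone, 896 without uvr8-6 high-dose replicate 1, 997 without uvr8-6 dark replicate 2, 925 without WT high-dose replicate 2 and 940 without WT dark replicate 2. A note in the deposited workbook says that the WT libraries came from an earlier RNA-seq run and the uvr8-6 libraries from a new one, so the sequencing run differed wherever the genotype did, and an effect of one cannot be told apart from an effect of the other. WT libraries were shallower, at 6163441 to 11984665 counts.

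Of the 16 flavonoid and phenylpropanoid genes, 4 had a lower response in uvr8-6 than in WT, none a higher one, and 12 did not pass. TT4 had 0.585, 0.126 and 0.0884 CPM in WT dark libraries and 25, 36 and 30.4 CPM in WT after UV-B, and its response was lower in uvr8-6 (difference -3.25 ± 0.84, adjusted p = 0.0207). FLS1 had 0.502, 0.126 and 0 CPM in WT dark libraries and 6.57, 3.55 and 6.36 CPM in WT after UV-B (difference -2.23 ± 0.68, adjusted p = 0.0421). The uvr8-6 levels of FLS1 given above lay above those of WT in the dark and overlapped them after UV-B. HY5 gave a difference of 0.96 ± 0.93 (adjusted p = 0.577), and of the 23 UVR8 pathway genes 1 differed upward (the flavonol regulator MYB111, 2.80 ± 0.61, named after its value was seen) and 0 downward. Both flavonoid genes rose in each genotype, by unequal amounts.

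Some damage and retrograde genes also had a lower response in uvr8-6. Of the 33 DNA damage genes, 10 had a lower response and 0 a higher one. SMR7 had 0.251, 0.379 and 0.619 CPM in WT dark libraries and 15.5, 17 and 16 CPM in WT after UV-B (difference -2.46 ± 0.53, adjusted p = 0.00637), and BRCA1 had 7.44, 7.44 and 10.6 CPM in WT dark libraries and 67.2, 66.1 and 52.2 CPM in WT after UV-B (difference -1.07 ± 0.24, adjusted p = 0.00743). The uvr8-6 levels of SMR7 given above lay above those of WT in the dark and overlapped them after UV-B. Those of BRCA1 overlapped WT in the dark and lay below WT after UV-B. Of the 32 retrograde genes, 16 had a lower response and 0 a higher one. DTX3 had 0.334, 0.126 and 0.0884 CPM in WT dark libraries and 340.3, 504 and 432 CPM in WT after UV-B (difference -3.69 ± 0.82, adjusted p = 0.00834). CBP60G differed by -5.02 ± 1.35, adjusted p = 0.0246, with 0, 0 and 0 CPM in WT dark libraries and 43.7, 54.1 and 57.4 CPM in WT after UV-B. The dark level in WT of several of these genes rests on very few counts, so the size of their difference is imprecise.

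The 5 largest differences on each side were mostly of genes that changed in one genotype far more than in the other. TAT3, a tyrosine aminotransferase induced by jasmonate, had 0.0836, 0 and 0.0884 CPM in WT dark libraries and 11.6, 18.9 and 11.3 CPM in WT after UV-B, against 1.73, 7.84 and 1.61 and 4.8, 5.93 and 6.11 CPM in uvr8-6 (difference -6.903 ± 1.099, adjusted p = 0.000943). AT5G54560 had 0, 0 and 0 CPM in WT dark libraries and 8.5, 10.2 and 7.4 CPM in WT after UV-B (difference -6.52 ± 1.34, adjusted p = 0.00624), and AT5G24640 and AT3G54520 differed by -5.77 ± 1.48 and -4.697 ± 0.96. On the other side AZI1, a lipid-transfer-type protein of systemic immunity, had 1.92, 4.16 and 1.5 CPM in WT dark libraries and 1.16, 2.75 and 0.809 CPM in WT after UV-B and 2.47, 0.647 and 0.773 and 16.8, 7.31 and 12.5 CPM in uvr8-6 (difference 3.89 ± 0.87, adjusted p = 0.00921). AT2G16586, AT4G18280, AT1G70270 and AT2G21210 had differences of 7.95 ± 2.25, 4.54 ± 1.35, 3.39 ± 0.71 and 3.299 ± 0.76. Of the 11415 genes changed in uvr8-6, 26 changed in the opposite direction in WT, and all 26 passed the test of the difference. Of the 6382 increases in uvr8-6, 519 had a lower response than in WT and 42 a higher one, and of the 5033 decreases, 608 had a response less negative than in WT and 104 one more negative.

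**Figure D5:**
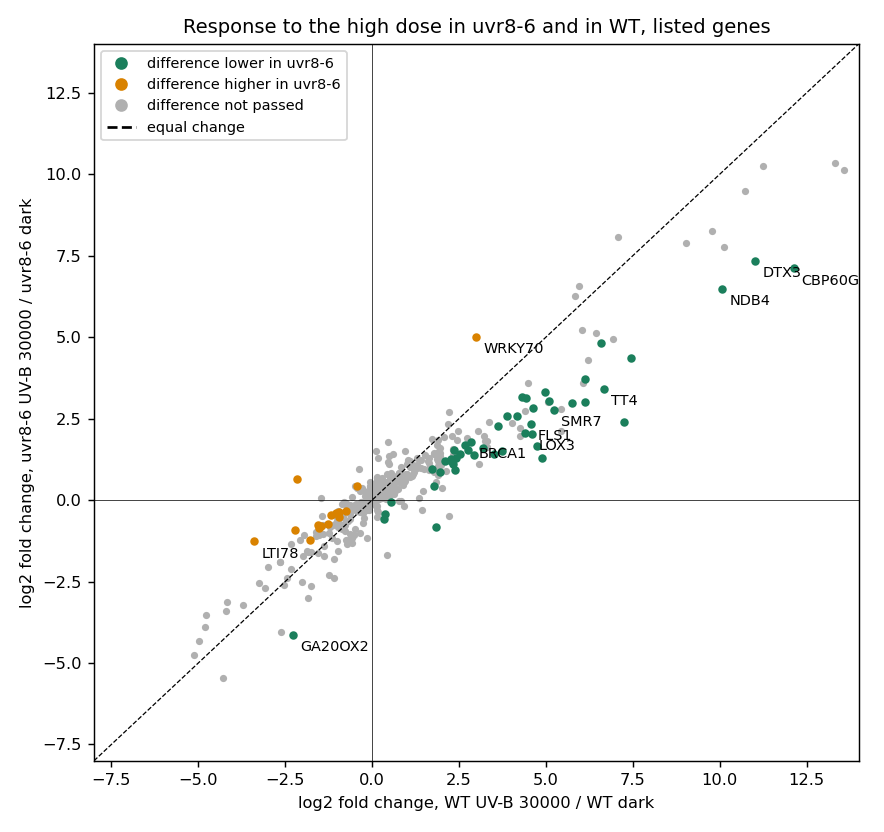
Response of genes of the 25 lists to the high dose in WT on the x axis and in uvr8-6 on the y axis, both as log2 fold change against dark libraries of the same genotype, with a dashed line of equal change. Green and orange points passed the test of the difference with a lower or a higher response in uvr8-6, and grey points did not; TT4 lies below the line, at 3.42 in uvr8-6 and 6.67 in WT.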

How the data were processed

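Hypocotyl RNA of 27 libraries (3 genotypes, each in the dark and at a low and a high UV-B dose, 3 replicates) was sequenced from TruSeq stranded libraries. FastQC, Trimmomatic, HISAT2 and DESeq2 are named in the submitters' processing notes; the versions, the genome build, the counter and its strand setting were not given in the sources used here, so reads of overlapping antisense genes may not be separated. The authors deposited a workbook with a raw count per locus and library, a DESeq2-normalised signal per library, which equals the deposited count divided by one factor per library, and, for each group, a standard error score of those normalised values. The deposited signal served only to recover those factors, and the deposited scores were not used. Total counts ranged from 12488317 to 15342281 in the 6 libraries compared.

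Counts were analysed with edgeR 4.0.16 (R 4.3.3, limma 3.58.1): filterByExpr left 19794 genes, TMM scaling, and robust quasi-likelihood tests in 1 model of 9 groups (18 residual degrees of freedom), with Benjamini-Hochberg adjustment over all tested genes and a threshold of 0.05. SE is the absolute log2 change divided by the square root of F. Floors and counting intervals (95%) cover counting error only. Named genes were UVR8, the 12 largest changes on each side without overlap and with mean log2 CPM of at least 1, up to 4 members per list by smallest p, and the 5 largest on each side of the other comparisons. Members and lists were chosen with earlier results of these data known. Dark and high-dose uvr8-6 libraries of the same number deviated together (correlations 0.156, 0.357 and 0.161, each above 0.1), so the numbers were taken to pair these samples, from the data and not from a label. The main fit held no replicate block, so its tests, SE and counts are unpaired. The pairing entered only the alternative fits with a block. Dark replicate 1 and high-dose replicate 3, of unlike number, correlated at 0.173. Low- and high-dose libraries of the same number correlated at 0.215, 0.365 and 0.384; in WT dark and high-dose libraries they were -0.021 to 0.078. Alternatives were DESeq2 1.42.0, its size factors, the authors' factors, no filter, fewer libraries, a replicate block and leaving out each replicate. Motifs were searched in 250 bases before the gene start. Code was tested on simulated data.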

Additional observations from a re-analysis of the deposited data

Results flagged for a closer look

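The response to the high dose was tested for a difference between uvr8-6 and WT, and 48 of the named genes passed at an adjusted p between 0.000507 and 0.0421 (edgeR). The values below are the log2 response in uvr8-6 minus that in WT. A lower response is therefore one less positive or more negative than in WT. Sequencing run and genotype changed together between these libraries and cannot be told apart.

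Lower responses in uvr8-6 were found for flavonoid genes, TT4 (-3.25) and FLS1 (-2.23), for DNA damage genes, XRI1 (-0.81), BRCA1 (-1.07), SMR7 (-2.46) and TRFL10 (-1.11), and for retrograde and oxidative stress genes, NDB4 (-3.59), DTX3 (-3.69) and CYP81D8 (-1.76). They were also lower for genes of immunity and receptor kinases, CBP60G (-5.02), CRK11 (-2.33) and CRK28 (-0.71), for genes of endoplasmic reticulum stress and senescence, BZIP60 (-0.75), NAC103 (-2.24) and SAG21 (-1.07), for hormone genes, GA20OX2 (-1.87), LOX3 (-2.55), ERF6 (-2.06) and ERF-1 (-1.32), for nucleolar genes, PUM24 (-1.14) and FIB1 (-0.91), for heat shock factors, HSF A4A (-1.28) and HSFA8 (-1.24), and for wall, surface and carrier genes, DIR13 (-2.51), DIR14 (-1.26), AGP13 (-1.39), AGP14 (-1.17), DTX16 (-1.47), AT4G12520 (-2.09) and AT5G37950 (-2.94). Of the genes named here, GA20OX2, DIR13, DIR14, AGP13, AGP14, AT4G12520 and AT5G37950 fell in uvr8-6, so their response was more negative than in WT, not weaker. The largest on this side were TAT3 (-6.90), AT5G54560 (-6.52), AT5G24640 (-5.77) and AT3G54520 (-4.70), beside CBP60G.

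Higher, that is more positive or less negative, responses in uvr8-6 were found for WRKY70 (2.02), LTI78 (2.12) and JAR1 (0.42), for growth genes, CESA6 (0.57), PIL5 (0.67), XTH8 (1.31) and EXP3 (0.76), and for HTA12 (0.97) and AT-HSFA7B (1.67). The 5 largest were AT2G16586 (7.95), AT4G18280 (4.54), AZI1 (3.89), AT1G70270 (3.39) and AT2G21210 (3.30).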

How the results depend on the processing

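Against the dark, the 11415 changed genes became 11363 with DESeq2, 11253 without the low-count filter, 10901 in the 9 uvr8-6 libraries, 10054 in the 6 libraries and 9762 to 10803 when 1 replicate was left out (5311 to 6092 higher and 4369 to 5199 lower). Between 83.6% and 99.4% of the genes called stayed called, by setting. The difference from WT moved most: 1625 genes became 1972 with DESeq2 (845 higher, 1127 lower), 1280 without the filter (391 higher) and 602 in 12 libraries alone (259 higher, 343 lower), and ranged over 896 to 2377 with 1 replicate left out (465 to 1330 higher, 413 to 1047 lower). The dose step ranged over 6331 to 7234 (2899 to 3968 higher, 3134 to 3558 lower). The causes were not tested.

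The replicate number as a block gave 12176 genes against the dark within genotype, 11533 in the 6 libraries, 9229 for the dose step and 2285 for the difference from WT. The block moved the list counts given with it above, the single heat shock decrease to 2, the single seed decrease to 0 and, in the 6 libraries, the single dirigent increase to 2. No other count moved by more than 1.5 times with it, and no named gene that passed the test changed direction under an alternative. Of 175 named genes tested against the dark, 163 kept their side of the threshold throughout; the exceptions were GPX7, HYH, DDB1B, DET1, PLE, HIK, TPX2, HSP90.1, LTI78, TMM, SPCH and GEA6. Of 10 named for the difference from WT, CBP60G, AT2G16586, AT4G18280 and AT5G24640 lost the call in some settings, and all 10 named for the dose step kept it. Of 82 list counts, 62 stayed within 1.5 times throughout. Of 41 list medians, 19 moved by less than the spread between replicates in every setting, and 78 of 574 values over all settings moved by more. Genes with few dark counts have folds limited by depth. The authors' deposited scaling factors and the 9-library fit were chosen after seeing the data.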

Other observations

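Families not described above were taken from product descriptions after the values were seen, so their counts describe these libraries and carry no test of the family. The shares to set beside them are those of all tested genes, 32.2% higher and 25.4% lower. Genes for ribosomal proteins gave 222 increases and 9 decreases among 263 (median 0.62), with 184 increases without the low-count filter and 177 in the 6 libraries. Pentatricopeptide repeat proteins, which edit and process organelle RNA, gave 102 increases and 7 decreases among 248, with 71 increases without the filter. Light-harvesting and photosystem genes gave 45 increases and no decrease among 48 (median 1.08), in plants that stayed in the dark before and after irradiation. The summed level of green-tissue markers rose in the same libraries, and its part was not tested.

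Receptor and signalling families also moved. Of TIR-NBS disease resistance genes, intracellular immune receptors, 42 rose and 12 fell of 87 (median 0.48), and AT4G11170 changed by 8.96 ± 0.62. Of wall-associated kinases, which bind pectin, 13 rose and 2 fell of 18 (median 1.59), with WAKL2 (4.39 ± 0.31) among the increases and WAKL18 (-1.42 ± 0.19) among the decreases. Of calmodulin-like proteins, 13 rose and 4 fell of 25 (median 0.43), with CML41 (6.64 ± 0.46) and CML10 (1.89 ± 0.13) higher. Of NAC factors, 24 rose and 12 fell of 56 (median 0.42), and of bHLH factors, 17 rose and 42 fell of 88 (median -0.21). The NAC median was 0.15 in a fit of the 9 uvr8-6 libraries and 0.18 in a fit of the 6 libraries.

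Lower levels prevailed among wall and surface families. Of class III peroxidases, 10 rose and 25 fell of 47 (median -1.14): PER15 (4.26 ± 0.39) rose beside PRXCA, while PER56 (-3.71 ± 0.35) and RCI3 (-2.16 ± 0.22) fell. Of lipid transfer proteins, 5 rose and 24 fell of 41 (median -1.35), with YLS3 (5.996 ± 0.41) higher and AT4G12510 (-4.99 ± 0.33) lower. Of ketoacyl-CoA synthases, which elongate the fatty acids of cuticular wax, 2 rose and 12 fell of 16 (median -0.95). Of pectate and pectin lyases, 7 rose and 27 fell of 48 (median -0.55). Cytochrome P450 genes held extremes on both sides, with CYP706A1 (7.55 ± 0.36) and CYP72A8 (8.57 ± 0.48) higher and CYP94B1 (-4.19 ± 0.26) and CYP714A1 (-4.56 ± 0.36) lower, and 32 rose and 57 fell of 129 (median -0.35).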
